A study of Mus musculus with 14 samples.

Results

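The Rel/NF-kB subunits are 5 genes, Rela, Relb, Rel, Nfkb1 and Nfkb2, whose proteins pair into the dimers that make up the transcription factor NF-kB. All probe sets that the platform annotation gives to exactly 1 of these genes were followed, which were 6 probe sets of 4 genes, out of 8251 genes with such a probe set on the array. Of the 6 probe sets, 3 passed the filter on low values and were tested, 1 each of Relb, Nfkb2 and Rela. No probe set was named to Nfkb1, which is not analysed here. The genes were picked as a family, with no measured value in the choice, but with earlier results of these data known.

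RNA labelled as lymph node was hybridised to 14 one-colour Affymetrix mouse arrays. The knockout animals (KO) are labelled Atm-/- and the controls (WT) Atm+/+. Within each genotype there were 3 arrays without treatment, 2 arrays taken 30 min after ionizing radiation and 2 arrays taken 120 min after it. The Atm allele, the strain, the age of the animals, the radiation dose and the number of animals behind an array are not stated by the labels, and nothing says that the arrays of a group are separate animals, so p-values measure the spread between these arrays, which may be technical.

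NF-kB dimers wait in the cytoplasm, held by inhibitor proteins of the IkB family. In the canonical pathway the IkB kinase complex (IKK) marks IkB for destruction and frees dimers of Rela (p65) or Rel (c-Rel) with p50, the product of Nfkb1. In the alternative pathway a different kinase route cuts the Nfkb2 precursor p100 to p52, which pairs with Relb, and this arm is known for building lymph nodes and maintaining their stroma and B cells. Double-strand breaks can reach IKK from the nucleus through the kinase Atm and the IKK subunit NEMO.

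The values are intensities, linear and never negative, scaled alike on all arrays before deposit. Changes were fitted with limma on log2(intensity + 32) after quantile normalization, a scale that understates changes of dim probe sets. They are given ± SE with p-values adjusted by the Benjamini-Hochberg method over 8938 tested probe sets and were called at an adjusted p under 0.05. Precision is limited by how few arrays there are, and the median SE over all probe sets was 0.232 for 2 irradiated against 3 untreated arrays. An intensity of one probe set cannot be set against that of another. The Atm probe set does not separate the genotypes, with 7.5 to 44.0 on the 7 KO arrays and 5.5 to 55.9 on the 7 WT arrays. Where it lies relative to the disruption is unknown, so it checks no label. All lists of B cell, T cell and other lymph node markers had signal, and no marker was at 0 on all arrays. Markers of salivary gland had summed intensities of 45460 to 81860 over the 14 arrays, and those of skeletal muscle 1187 to 12420, so RNA of salivary gland and muscle genes was present beside that of lymph node genes. The highest intensity of the series, 15198.3, was that of the salivary gland marker Prol1 on KO 30 min A.

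The upstream regions of the subunit genes are shown because the NF-kB family is known to act on its own genes. The windows are the 250 bases before an annotated start from RefSeq, build GRCm38.p6, printed in the direction of the gene. The NF-kB (kB) consensus was searched on both strands, and capitals mark the bases matched. Of 32851 windows of this length, 1281 held at least 1 match (3.9%) and 0.49% held at least 2. Promoters of 3 of the 5 subunit genes were found in the RefSeq table, those of Nfkb2, Rel and Rela. The first annotated start of Nfkb2 lies behind chr19:46304487-46304736 (plus strand), that of Rel behind chr11:23770970-23771219 (minus strand) and that of Rela behind chr19:5637291-5637540 (plus strand).
Nfkb2, first start: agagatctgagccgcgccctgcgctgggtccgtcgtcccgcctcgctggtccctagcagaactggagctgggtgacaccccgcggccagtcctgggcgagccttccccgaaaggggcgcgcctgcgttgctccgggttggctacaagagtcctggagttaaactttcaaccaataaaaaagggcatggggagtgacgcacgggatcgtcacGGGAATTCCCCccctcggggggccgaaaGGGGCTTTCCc
Rel: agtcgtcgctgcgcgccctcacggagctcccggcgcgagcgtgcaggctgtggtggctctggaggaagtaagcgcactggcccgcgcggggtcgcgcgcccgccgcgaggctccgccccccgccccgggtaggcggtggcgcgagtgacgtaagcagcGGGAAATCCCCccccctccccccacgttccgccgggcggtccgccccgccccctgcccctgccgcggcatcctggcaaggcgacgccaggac
Rela: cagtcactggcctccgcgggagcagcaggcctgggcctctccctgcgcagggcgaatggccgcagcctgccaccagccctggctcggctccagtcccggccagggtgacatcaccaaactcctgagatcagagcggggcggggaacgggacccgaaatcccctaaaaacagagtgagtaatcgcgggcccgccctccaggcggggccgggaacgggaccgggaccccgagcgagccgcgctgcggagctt
The Nfkb2 window holds matches at -39 to -30 (readable on both strands, overlapped by a reverse match at -38 to -29) and at -11 to -2 (forward), counted from the start. Another forward match lies 11 to 20 bases into the transcript from the second annotated start of Nfkb2, within chr19:46305695-46305724 (plus strand).
Nfkb2, second start: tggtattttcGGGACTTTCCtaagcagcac
The Rel window holds a match at -92 to -83 on both strands, overlapped by a reverse match at -91 to -82, and the Rela window holds none of these letters. Matches are descriptions of the sequence and no evidence of binding.

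Relb, the subunit that pairs with p52 in the alternative pathway, was the 1 subunit probe set of the 3 tested that was called in WT after radiation. Its intensity in KO was 72.0, 32.7 and 31.2 untreated, 37.1 and 24.0 at 30 min, and 41.9 and 75.6 at 120 min. In WT it was 62.6, 20.5 and 28.7 untreated, 26.6 and 16 at 30 min, and 277.4 and 257.4 at 120 min. Both WT arrays at 120 min stood above all 12 others, which lay between 16 and 75.6. At 120 min WT averaged 267.4 ± 14.14, against 37.27 ± 22.32 in untreated WT (SD, n = 2 and n = 3), a ratio of mean intensities of 7.175. The fitted change was 2.14 ± 0.28 on the log2 scale (95% interval 1.54 to 2.74, limma adjusted p = 0.00272), which ranked 13 by p among the 8938 probe sets. Relb rose as well in WT at 120 min against WT at 30 min, by 2.45 ± 0.30 (1.79 to 3.11, limma adjusted p = 0.00755). At 30 min the WT change was -0.31 ± 0.28 and missed the threshold (adjusted p = 0.98). Relb had thus risen in WT between 30 and 120 min.

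In KO the Relb change at 120 min was 0.26 ± 0.28 (-0.34 to 0.86, limma adjusted p = 0.88), and the arrays at 120 min (41.9 and 75.6) overlapped with the untreated range of 31.2 to 72.0. The change at 30 min was -0.25 ± 0.28 (adjusted p = 0.822). Both KO arrays at 120 min lay above both KO arrays at 30 min, as 15.9% of all tested probe sets did. That change of 0.52 ± 0.30 was not called (limma adjusted p = 0.804). Between the genotypes at 120 min Relb was lower in KO by a log2 difference of -1.75 ± 0.30 (-2.41 to -1.09, limma adjusted p = 0.0317), with mean intensities of 58.75 ± 23.83 in KO and 267.4 ± 14.14 in WT (SD, n = 2 each). The difference between the genotypes was 0.13 ± 0.25 without treatment (adjusted p = 0.988) and 0.18 ± 0.30 at 30 min (adjusted p = 0.944). The direct test of whether the 120 min response differed between genotypes gave -1.88 ± 0.39 (-2.73 to -1.03), which missed the threshold (limma adjusted p = 0.146). A difference between the responses of KO and WT is therefore not shown for Relb by that test, while the difference in level at 120 min passed its own.

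Ordered by mean intensity, Relb stood highest in WT at 120 min, then in KO at 120 min, KO untreated, WT untreated, KO at 30 min and WT at 30 min. Below the first place, every group overlapped in deposited intensity with its neighbour in this order, though not with every group further down it. Relb lay above the low-value filter on 5 of 14 arrays, which were both WT arrays at 120 min, KO 120 min B, KO untreated A and WT untreated A.

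The Relb calls differ in how far they rest on single arrays. The rise in WT at 120 min against untreated was called in 12 of 14 fits that each left out 1 array. Array A of WT at 120 min, when left out, gave an adjusted p of 0.0525, array B of that group gave 0.0507, and the change ranged from 1.95 to 2.38. The rise in WT between 30 and 120 min was called in 10 of 14 such fits and ended when either array was left out of WT at 30 min (A 0.0638, B 0.162) or of WT at 120 min (A 0.116, B 0.0976). The KO against WT difference at 120 min was called in 8 of 14. It ended on leaving out KO 120 min A (0.375), either array of WT at 120 min (A 0.278, B 0.244) or of WT at 30 min (A 0.0517, B 0.0521), or WT untreated C (0.056), with values between -2.03 and -1.47. That difference also ended without the 3 arrays that correlated least with the rest (-1.49, adjusted p = 0.208), which were KO 30 min A, KO 120 min A and WT untreated A. In all of these fits the direction of the 3 differences held. Where a group of 2 lost 1 array, the group had no spread of its own.

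**Figure D1:**
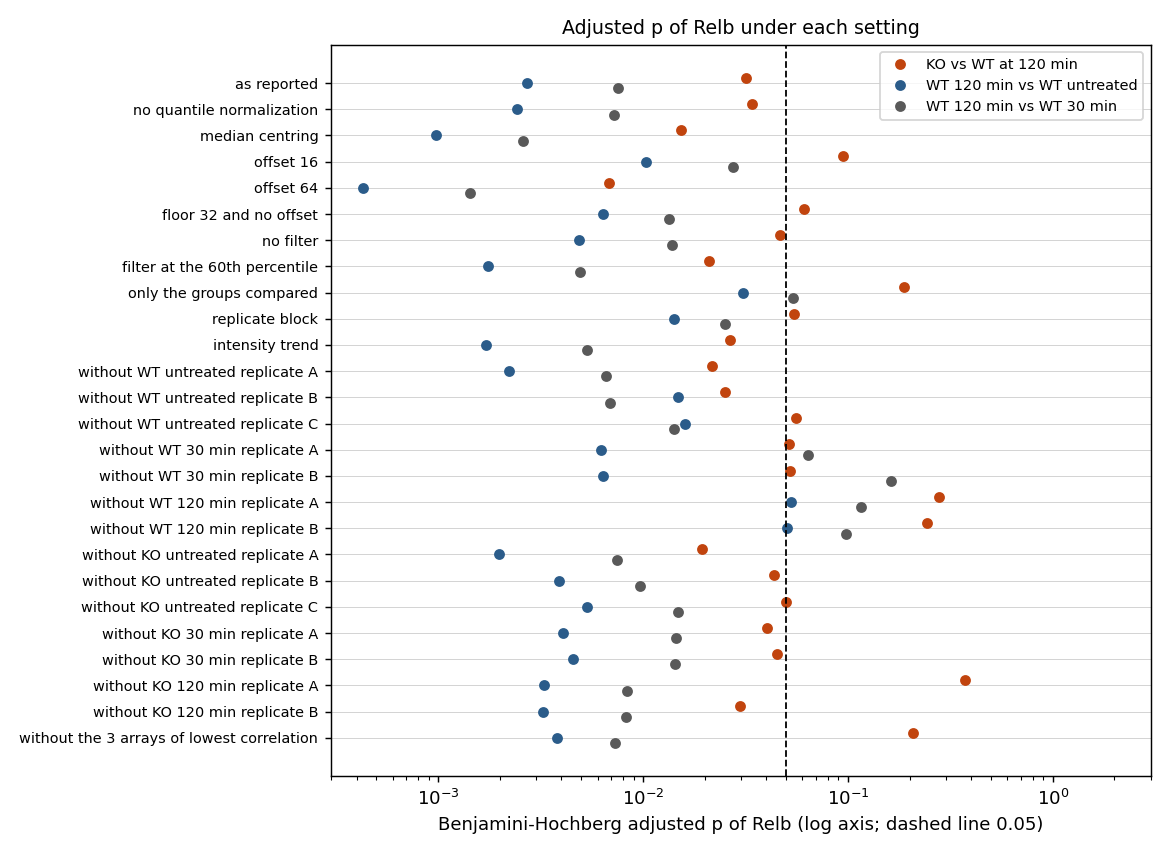
Benjamini-Hochberg adjusted p of Relb (log axis) under each processing setting and with each array left out, for KO against WT at 120 min (orange), WT at 120 min against untreated (blue) and WT at 120 against 30 min (grey). The dashed line is 0.05: blue points lie right of it only without either WT 120 min array (0.0525 and 0.0507), and orange points do so in 6 of the 14 fits without 1 array.

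Summed markers of several cell types differed between the groups that the Relb rise compares. B cell markers (11 genes) had summed intensities of 1291 to 1404 in WT at 120 min, against 2075 to 2814 in untreated WT, with no overlap. Of these, 1 of 11 fell (Cd22) and the median log2 change was -0.75. In KO at 120 min the B cell sum was 2289 to 3109, against 1842 to 2417 untreated, overlapping. The B cell list was therefore lower by its sum in the WT group where Relb was high. T cell markers (11 genes) summed to 648.4 to 659 in WT at 120 min, against 902.8 to 993.9 in untreated WT, and to 809.9 to 1007 in KO at 120 min, against 712 to 906.5 in untreated KO. In bulk samples fewer cells of a type and less RNA per cell cannot be told apart. Markers of macrophages and monocytes (11 genes) summed to 2596 to 3404 in KO at 120 min, against 2439 to 2648 in untreated KO, and to 3165 to 3365 in WT at 120 min, against 2261 to 2658 in untreated WT. In WT 1 of 10 tested rose, Cd14, with 1208.9 and 1232.2 at 120 min, against 174, 366.2 and 258.4 untreated, while the median log2 change of the list was 0.06. Neutrophil markers (10 genes) summed to 822.4 to 1392 in KO at 120 min, against 692.6 to 1089 untreated, and to 662.6 to 800.8 in WT at 120 min, against 651.5 to 975.7 untreated. The neutrophil sums overlapped between 120 min and untreated in both genotypes. Dendritic cell markers, a cell type known for Relb, summed to 1484 to 1608 in WT at 120 min, against 1247 to 1478 untreated, and to 1497 to 1504 in KO at 120 min, against 1163 to 1404 untreated. Dendritic cell sums overlapped between the genotypes at 120 min. The median log2 change of this list was 0.06 in WT, with 4 of 8 tested genes positive, and 0.22 in KO, with 5 of 8 positive. None was called in either genotype. Its largest member, Fscn1, read 782 and 781.9 in WT at 120 min, against 524.5, 666.8 and 593.7 untreated. Skeletal muscle markers (12 genes) summed to 1187 to 4028 in KO at 120 min, against 4041 to 12420 in untreated KO, and to 4232 to 4234 in WT at 120 min, against 1574 to 3437 in untreated WT. Their median log2 change at 120 min was -1.48 in KO, with 0 of 12 positive, and 0.70 in WT, with 12 of 12 positive, and the difference between the responses had a median of -2.21, with 0 of 12 called in each. The muscle list thus lay in the same directions as Relb in WT and between the genotypes at 120 min. It did not in KO at 120 min, where Relb changed by 0.26 ± 0.28. Between the untreated genotypes the muscle median was 1.52 (KO against WT), with 12 of 12 positive, where Relb differed by 0.13 ± 0.25. Salivary gland markers (8 genes) summed to 73450 to 76200 in KO at 120 min, against 45460 to 60620 untreated, and to 55560 to 64470 in WT at 120 min, against 54120 to 59200 untreated, with 0 of 8 called in either. The Gapdh 3' to 5' ratio, a sign of RNA quality, was 0.8908 and 0.7234 in WT at 120 min and 0.9577, 0.9017 and 1.007 in untreated WT. It was 0.8572 and 0.777 in KO at 120 min and 0.8957, 0.8666 and 0.9761 in untreated KO, so it was lower at 120 min than untreated in both genotypes. The same ratio for actin overlapped in both genotypes. It was 1.41 and 1.331 in WT at 120 min, against 1.437, 1.364 and 1.58 untreated. In KO it was 1.345 and 1.354 at 120 min, against 1.244, 1.422 and 1.302 untreated. The part of these in the Relb values was not tested.

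Nfkb2 encodes p100, which holds Relb back, and its product p52. Its intensity in KO was 39.5, 49.3 and 77.9 untreated, 90.2 and 76.3 at 30 min, and 130.5 and 65.4 at 120 min. In WT it was 139.7, 113.4 and 63.7 untreated, 84.3 and 52.5 at 30 min, and 179.4 and 169.2 at 120 min. Both WT arrays at 120 min stood above all other arrays, while the KO arrays at 120 min overlapped with untreated KO. The WT change at 120 min was 0.64 ± 0.28 (0.03 to 1.25) and missed the threshold (limma adjusted p = 0.554), as did that in KO, 0.58 ± 0.28 (-0.03 to 1.18, adjusted p = 0.71). The 120 min responses of KO and WT differed by -0.06 ± 0.40, with an interval of -0.92 to 0.8 that includes sizeable differences either way. WT at 120 min against WT at 30 min gave 1.04 ± 0.31 (0.37 to 1.7, limma adjusted p = 0.425), and KO at 120 min against KO at 30 min 0.16 ± 0.31 (adjusted p = 0.973). At 30 min the change was 0.42 ± 0.28 in KO (adjusted p = 0.703) and -0.40 ± 0.28 in WT (adjusted p = 0.98). Those 2 responses differed by 0.82 ± 0.40 (-0.04 to 1.68, adjusted p = 0.868), and the levels at 30 min by 0.16 ± 0.31 (adjusted p = 0.953). None of these was called. Nfkb2 in untreated samples had a mean of 55.57 ± 19.95 in KO and 105.6 ± 38.6 in WT (SD, n = 3 each), a difference of -0.66 ± 0.25 (-1.2 to -0.11) that was not called (limma adjusted p = 0.861). At 120 min the genotypes differed by -0.72 ± 0.31 (-1.39 to -0.05, adjusted p = 0.64). Ordered by mean, Nfkb2 was highest in WT at 120 min, then WT untreated, KO at 120 min, KO at 30 min, WT at 30 min and KO untreated, with overlap between each of these neighbours except the first pair.

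Rela encodes p65, which carries the strong activation domain of the canonical dimer. Its probe set was bright, between percentiles 93.3 and 97.8 of all probe sets on its array. Its intensity in KO was 964.9, 595.6 and 915.7 untreated, 756.7 and 645.6 at 30 min, and 704.6 and 933.9 at 120 min. In WT it was 804.9, 776.3 and 688.8 untreated, 893.7 and 685.2 at 30 min, and 1491.0 and 1231.2 at 120 min. Again the WT arrays at 120 min lay above the other 12, which ranged from 595.6 to 964.9. WT at 120 min averaged 1361 ± 183.7, against 756.7 ± 60.49 untreated (SD, n = 2 and n = 3), a ratio of 1.799. The fitted change of 0.75 ± 0.23 (0.24 to 1.26) was not called (limma adjusted p = 0.337), nor was the 0.74 ± 0.26 against WT at 30 min (adjusted p = 0.657). In KO the change at 120 min was -0.03 ± 0.23 (-0.53 to 0.48, adjusted p = 0.991). KO against WT at 120 min gave -0.69 ± 0.26 (-1.25 to -0.13, adjusted p = 0.531), and the responses at 120 min differed by -0.78 ± 0.33 (-1.5 to -0.06, adjusted p = 0.668). At 30 min the change was -0.20 ± 0.23 in KO (adjusted p = 0.837) and 0.01 ± 0.23 in WT (adjusted p = 1), a difference in response of -0.21 ± 0.33 (adjusted p = 0.946). KO at 120 min against KO at 30 min gave 0.17 ± 0.26 (adjusted p = 0.951). KO against WT gave 0.09 ± 0.21 without treatment (adjusted p = 0.988) and -0.12 ± 0.26 at 30 min (adjusted p = 0.959). None of the Rela differences was called. In order of mean intensity Rela stood highest in WT at 120 min, then in KO untreated, KO at 120 min, WT at 30 min, WT untreated and KO at 30 min. Every neighbour below the first overlapped.

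**Figure D2:**
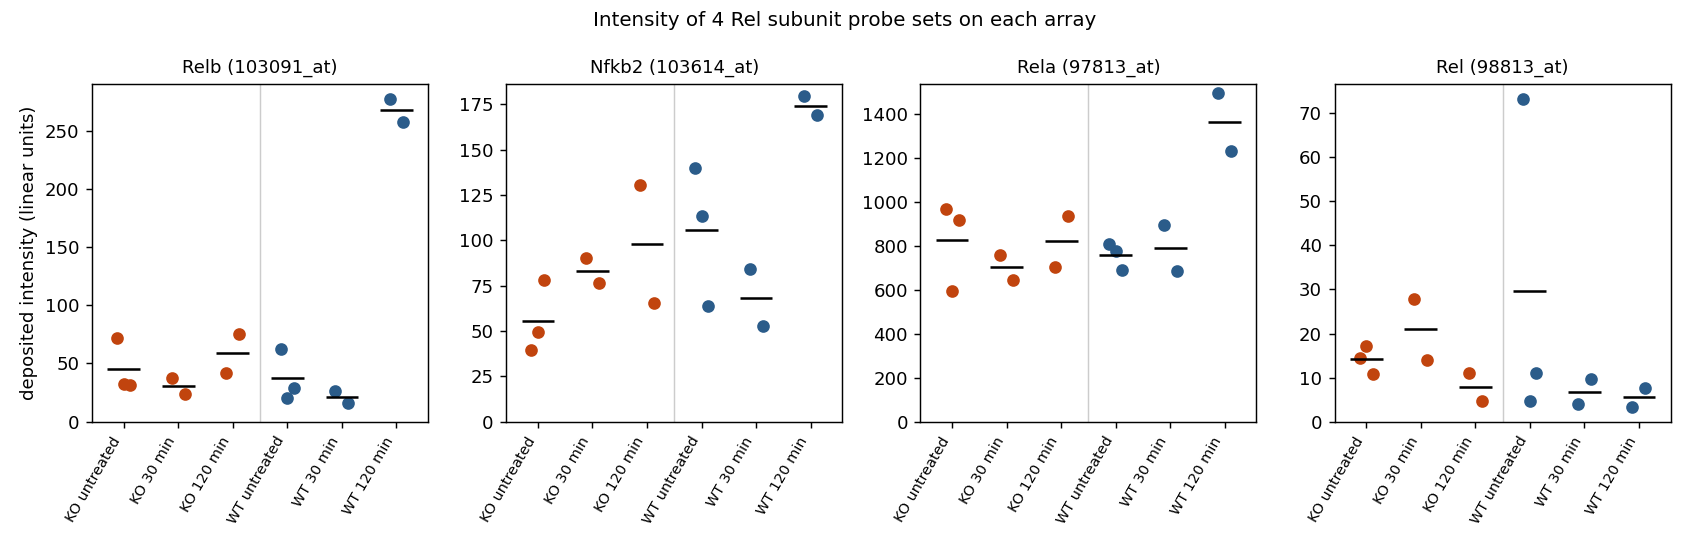
Deposited intensity (linear units, axis from 0) of the main probe set of Relb, Nfkb2, Rela and Rel on each of the 14 arrays, KO in orange and WT in blue, with group means as black lines. Both WT arrays at 120 min stand above all others for Relb (277.4 and 257.4), Nfkb2 (179.4 and 169.2) and Rela (1491.0 and 1231.2), while Rel stays at or below 73.2. Nfkb2 and Rela were not called, and the share of all probe sets that stand so was not counted.

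Rel, the lymphoid subunit c-Rel, was too dim to test. Its probe set ranged from 3.4 to 73.2 with a median of 11 and passed the low-value filter on 1 array, WT untreated A, so it was not tested. In KO it read 14.4, 17.1 and 10.9 untreated, 27.9 and 14 at 30 min and 11.1 and 4.7 at 120 min. In WT it read 73.2, 4.7 and 11.1 untreated, 3.9 and 9.6 at 30 min and 3.4 and 7.7 at 120 min. At 30 min both KO arrays lay above both WT arrays, and by normalized values above untreated KO and above KO at 120 min, all below the filter. Of all tested probe sets, 15.2% lay above in the first of these comparisons and 11.1% in the second. Between the KO times 31.3% did not overlap, in either direction. The second probe sets of Relb and Rela were also too dim to test. That of Relb (of a type designed against a sequence family) ranged from 6.1 to 47.3, passed the filter on 0 arrays and read 29.4 and 13.2 in WT at 120 min. That of Rela (an incomplete probe set by its suffix) ranged from 3.6 to 57.0 and passed on 1 array. The correlation with the brighter probe set of the same gene over the 14 arrays was 0.39 for Relb and -0.1 for Rela. The dim Relb probe set read 7.4 and 6.6 in KO at 120 min, below both WT arrays at that time (ratio of means 0.3286), and WT at 120 min lay above WT at 30 min (ratio 3.043), both in the direction of the brighter probe set. It overlapped between 120 min and untreated in WT. By normalized values it lay lower in KO at 120 min than in KO at 30 min and untreated KO. The brighter one changed there by 0.52 and 0.26 (not called). The dim one was also lower in untreated KO than in untreated WT. Of all tested probe sets, 20.9% lay below in KO against WT at 120 min and 18.1% above in WT at 120 against 30 min. The shares not overlapping were 31.3% and 26.7% in those KO comparisons and 10.7% between the untreated genotypes. The called Relb rise rests on 1 probe set.

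The shares of all probe sets called give the background for these counts. In WT at 120 min against untreated 1 of the 3 tested subunit probe sets was called, where 0.515% of all tested probe sets were (46, of which 42 rose). In WT at 120 against 30 min it was also 1 of 3, beside 0.123%, and in KO against WT at 120 min 1 of 3, beside 0.257%. In all 3 comparisons the called one was Relb. In WT at 30 min 0 of 3 were called by limma, beside 0.101% of all, and 0 of 3 had an unadjusted p under 0.05. For KO against WT at 30 min the share was 0 of 3, beside 0.101%, with 0 at an unadjusted p under 0.05. The difference in response was called for 0 of 3 at 30 min, beside 0.0783%, and for 0 of 3 at 120 min, beside 0.134%, where 0 and 2 of 3 had an unadjusted p under 0.05. In KO, limma called 0 of 8938 probe sets (0%) at 30 min, at 120 min and between these times, with 749, 645 and 640 at an unadjusted p under 0.05 and 0 of the 3 subunits among them. KO against WT without treatment also gave 0 calls (0%), with 490 at an unadjusted p under 0.05, of which 1 was a subunit, Nfkb2. Without KO untreated B limma called 7 probe sets between the untreated genotypes, none of them a subunit. The zeros in KO were exceeded most in fits without KO 30 min B or KO 120 min B. Those fits leave only KO 30 min A or KO 120 min A in the group, which gives it no spread of its own. Both of these arrays were among the 3 that correlated least with the rest, so the counts are not read here. The missing spread is shared by every fit without 1 array of a group of 2, also those of WT read above for Relb.

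Non-overlap was more common than calls. All 3 tested subunits had every WT array at 120 min above every untreated WT array, where 13.3% of all probe sets did, and above every WT array at 30 min, where 18.1% did. All 3 also had every KO array at 120 min below every WT array at 120 min, where 20.9% of all did. These comparisons share the WT arrays at 120 min, so the 3 counts are not separate observations. The share of all probe sets with both WT arrays at 120 min above every other array was not counted.

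**Figure D3:**
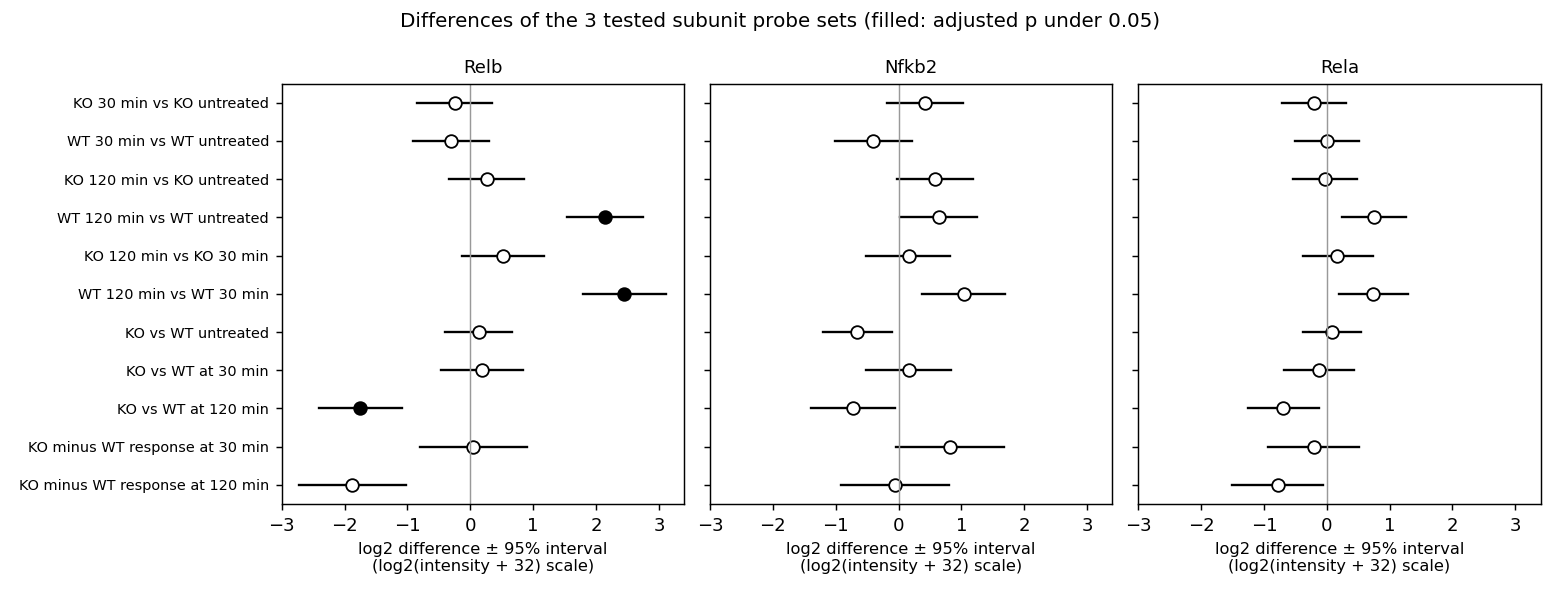
Log2 differences with 95% intervals (log2(intensity + 32) scale) of Relb, Nfkb2 and Rela in 11 comparisons. Filled points have an adjusted p under 0.05: they are the 3 of Relb named above (2.14, 2.45 and -1.75), and the 95% interval of its difference in response at 120 min (-2.73 to -1.03) lies below 0 although its adjusted p is 0.146.

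The pathway around the subunits was followed through gene lists. Of 9 ligands, 7 had a probe set and 2 were bright enough to test. Ltb, the lymphotoxin that drives the alternative pathway, had -0.76 ± 0.21 in WT at 120 min (limma adjusted p = 0.234) and Lta -0.04 ± 0.27, and neither was called. The other 5, such as Tnf and Il1b, were too dim to test. Tnf read 86.6 and 31 in WT at 120 min, above the 7.1 to 23.5 of all other arrays, but passed the low-value filter only on WT 120 min A. Of the receptors 6 of 9 were tested and 0 called, with a median of 0.09 beside -0.004 over all probe sets. Among them were Il1r1 (-0.42 ± 0.16), Tnfrsf11a (0.26 ± 0.29), Cd40 (0.20 ± 0.28) and Tnfrsf1a (0.17 ± 0.22). Of the IKK complex, its upstream kinases and adaptors, 14 of 22 were tested and 0 called, with a median of 0.17. The largest were Map3k8, a kinase bound by p105, at 1.04 ± 0.23 (adjusted p = 0.0783), the adaptor Bcl10 at 0.74 ± 0.16 (adjusted p = 0.0859), Traf5 at 0.55 ± 0.45 and Map3k7 at 0.42 ± 0.31. Map3k8 had 0.67 ± 0.23 in KO, and its level at 120 min differed between KO and WT by -0.30 ± 0.25, which was not called. In the route from nuclear damage to IKK 5 of 9 were tested and 0 called, with Xiap at 0.56 ± 0.25, Atm at 0.39 ± 0.36, Parp1 at -0.19 ± 0.34 and Ikbkg, which encodes NEMO, at 0.10 ± 0.22. Rel coregulators likewise gave 0 of 6 called, with Crebbp at -0.40 ± 0.45, Ncoa3 at -0.12 ± 0.19, Ncoa1 at -0.06 ± 0.27 and Rps3 at -0.04 ± 0.15.

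The inhibitors showed calls in WT. In the IkB family 5 of 6 listed genes were tested and 2 rose in WT at 120 min, with a list median of 0.79 in WT and 0.03 in KO. Nfkbia, which encodes the inhibitor that the canonical pathway destroys and remakes, rose by 2.42 ± 0.16 (limma adjusted p = 1.52e-05). Bcl3, a nuclear IkB that works with p50 and p52, rose by 2.14 ± 0.27 (adjusted p = 0.00224). Nfkbiz (0.79 ± 0.24) and Nfkbib (0.44 ± 0.20) were not called. In KO the changes were 0.15 ± 0.16 for Nfkbia and 0.24 ± 0.27 for Bcl3, neither called. Of the negative regulators 3 of 7 were tested and 1 rose, Tnfaip3 (A20, which edits ubiquitin chains), by 2.33 ± 0.23 (adjusted p = 0.00044), against 0.29 ± 0.23 in KO. Tnfaip3 passed the low-value filter only on irradiated WT arrays, so it counts as tested through the groups where it was high. It read 2.8 to 31.7 in untreated WT and 3 to 18.1 on the KO arrays, all below the filter. Otud7b (0.60 ± 0.19) and Tnip1 (0.41 ± 0.20) were not called. Nfkbia had already risen in WT at 30 min, by 1.5 ± 0.16 (adjusted p = 0.000751), when Relb had not. The calls of Nfkbia and Tnfaip3 at 120 min held in 14 of 14 fits without 1 array, and that of Bcl3 ended without WT 120 min B. The call of Nfkbia at 30 min held in 14 of 14, and ended where limma saw only the groups compared (adjusted p = 0.149).

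Of 31 listed targets of the canonical pathway 21 were tested and 8 rose in WT at 120 min, with 0 that fell and a median of 0.35, against 0 called in KO and a median of 0.17. Cxcl1, a neutrophil chemokine, rose by 4.05 ± 0.32 (limma adjusted p = 5.66e-05), Tnfaip2 by 2.12 ± 0.29, the adhesion molecule Icam1 by 2.10 ± 0.22 and Birc3, an inhibitor of apoptosis, by 1.99 ± 0.27. The other 4 were the chemokine Cxcl2 (1.75 ± 0.31), the growth factor Csf1 (1.71 ± 0.32), Ier3 (1.56 ± 0.18) and Irf1 (1.4 ± 0.19). Cxcl2, like Tnfaip3, passed the low-value filter only on irradiated WT arrays. Cxcl1 and Ier3 had risen by 30 min, by 2.58 ± 0.32 and 2.35 ± 0.18, while Icam1 and Tnfaip2 rose between 30 and 120 min (2.03 ± 0.24 and 2.08 ± 0.32), as did Bcl3 (1.89 ± 0.29). The calls at 120 min held in 14 of 14 fits without 1 array, and under all 11 other settings, for Cxcl1, Icam1 and Ier3. That of Birc3 ended without WT 120 min B, that of Tnfaip2 without WT 120 min A and that of Irf1 without either. Cxcl2 was called in 10 of 14, ending without WT untreated B or C or either WT 120 min array. Csf1 was called in 6 of 14, ending without WT untreated B, KO untreated B, or any of the WT 30 min, WT 120 min or KO 120 min arrays. Cxcl1 at 30 min ended without WT 30 min B. The 3 calls between 30 and 120 min were held in 10 of 14 for Icam1, ending without any array of the 2 groups, in 6 of 14 for Tnfaip2 and in 5 of 14 for Bcl3, both of which also ended without arrays outside the comparison. Of the other settings, Csf1 kept its call in 5 of 11, Cxcl2 in 6 of 10 and Irf1 in 10 of 11 at 120 min, and Icam1 in 10, Tnfaip2 in 9 and Bcl3 in 7 of 11 between 30 and 120 min. Targets of the alternative pathway gave 0 of 4 called, with Glycam1 at -1.10 ± 0.31 (adjusted p = 0.263), the B cell chemokine Cxcl13 at 0.33 ± 0.33, Cxcl12 at 0.16 ± 0.26 and Madcam1 at -0.10 ± 0.24. By count, 0 of 4 tested targets of the alternative arm and 8 of 21 of the canonical arm were called where Relb rose, beside 0.515% of all tested probe sets. The 2 counts were not compared by a test, and 4 genes are too few to set the arms apart. The lists were chosen with earlier results of these data known, and Cxcl2 was tested only through arrays where it was high. The 8 of 21 beside the share of all probe sets is therefore no independent support.

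In KO against WT at 120 min 8 genes of these lists were lower in KO beside Relb. They were Nfkbia (-2.24 ± 0.17, limma adjusted p = 0.00011), Bcl3 (-2.10 ± 0.29), Tnfaip3 (-2.48 ± 0.26), Cxcl1 (-3.98 ± 0.35), Icam1 (-1.97 ± 0.24), Birc3 (-1.82 ± 0.29), Ier3 (-1.22, adjusted p = 0.0175) and Tnfaip2 (-2.07 ± 0.32). Tnfaip3 was tested only through irradiated WT arrays, where it was high, so its differences between KO and WT are no separate support. The calls of Nfkbia, Tnfaip3, Cxcl1 and Icam1 held in 14 of 14 fits without 1 array, but those of Cxcl1 (adjusted p = 0.0684) and Icam1 (0.101) ended with only the groups compared in the fit. That of Bcl3 ended without WT 120 min B or KO 120 min A, those of Birc3 and Ier3 without any of the 4 arrays compared, and that of Tnfaip2 without either WT array or KO 120 min B. Under the 11 other settings Tnfaip2 kept its call in 10, Bcl3 in 9, Ier3 in 8 and Birc3 in 7. The difference between the 120 min responses, which Relb missed, was called for Nfkbia (-2.27 ± 0.22), Cxcl1 (-4.17 ± 0.46), Tnfaip3 (-2.04 ± 0.33, adjusted p = 0.0348) and Icam1 (-1.81 ± 0.31, adjusted p = 0.0493). It held in 14 of 14 for Nfkbia and Cxcl1, in 5 of 14 for Tnfaip3 and in 2 of 14 for Icam1, with arrays of all groups but KO 30 min among those whose loss ended it, and under 11 of 11 other settings for Nfkbia and Cxcl1, 6 for Tnfaip3 and 4 for Icam1. At 30 min KO was lower than WT for Nfkbia (ending without WT 30 min B), Cxcl1 (ending without either WT 30 min array or KO 30 min A) and Ier3 (14 of 14), and all 3 passed the test of the difference in response at that time. In that test Ier3 held in 14 of 14, Cxcl1 in 4, ending without arrays of every group but WT at 120 min, and Nfkbia in 2, ending without arrays of all 6 groups. The level call of Ier3 at 30 min ended with only the groups compared (adjusted p = 0.133), those of Cxcl1 and Nfkbia with that setting and without the 3 least correlated arrays. Under the 11 other settings the difference in response at 30 min was kept in 10 for Ier3, ending without those 3 arrays (adjusted p = 0.0716), in 6 for Cxcl1 and in 5 for Nfkbia.

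**Figure D4:**
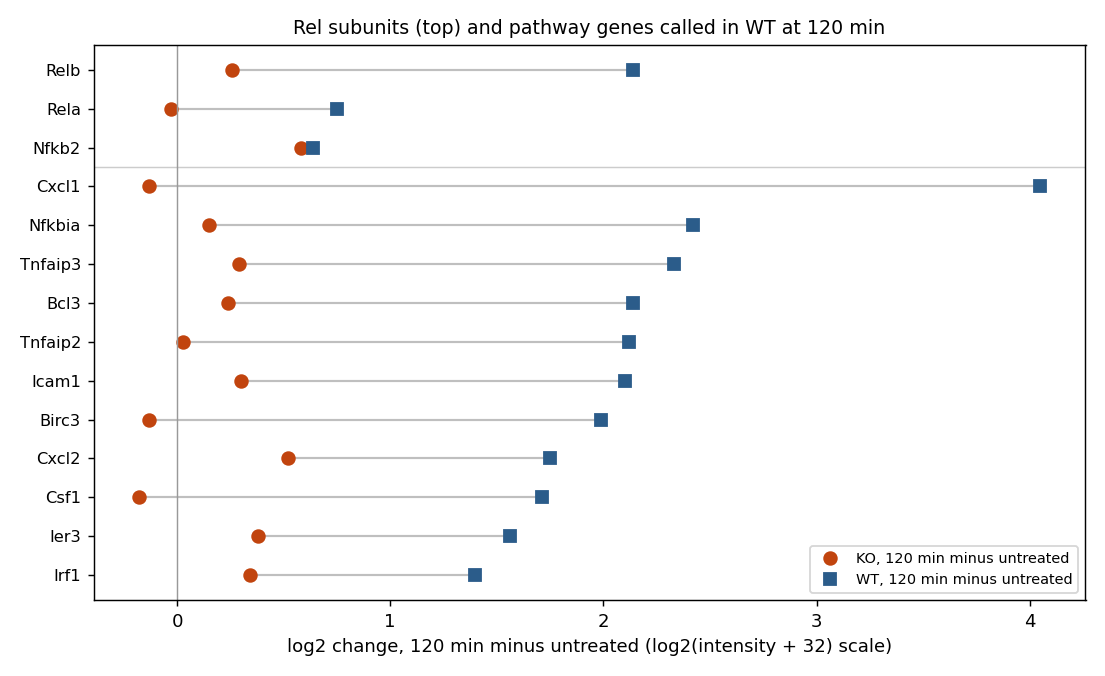
Log2 change at 120 min against untreated (log2(intensity + 32) scale) in KO (orange circles) and WT (blue squares) for the 3 tested subunits, above the line, and for the 11 pathway genes that rose in WT. The 11 were picked because they were called in WT, so WT lying to the right of KO for all 11 was largely set by that choice. For the subunits, which were picked as a family, the gap is widest for Relb (0.26 in KO, 2.14 in WT) and narrowest for Nfkb2 (0.58 in KO, 0.64 in WT).

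The genes whose pattern was most like that of a subunit were ranked by Pearson correlation of normalized log2 values over the 14 arrays, which share the 6 groups and are not independent points. For Relb they were Hivep1 (0.924), Rhou (0.907) and Sprr1a (0.899). For Nfkb2 they were Tmbim1 (0.875), Cdkn1a (0.844) and Nfe2l1 (0.816). For Rela they were Ptpn2 (0.871), Relb itself (0.85) and Ammecr1l (0.811). Between the subunits, Relb and Rela had 0.85, Relb and Nfkb2 0.6, and Nfkb2 and Rela 0.54. Hivep1, which encodes a zinc finger protein that binds kB-like sites, thus tracked Relb most closely of all genes tested, and Relb was among the 3 genes closest to Rela.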

How the data were processed

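The 14 arrays fall into 6 groups of genotype and time, read from the titles. The authors deposited 1 intensity for each probe set on each array, between 0 and 15198.3. Software, settings and genome build are not stated in the sources used here. Without its extremes each array averaged 150.1, so values had been scaled before deposit, as read from the values.

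Intensities were taken as log2(intensity + 32). Because the array medians spanned 0.2733, they were quantile normalized. Of 12488 probe sets, 66 controls were left out, and 8938 that lay above the array's own 40th percentile (38.3 to 55.28) on at least 2 arrays were tested. Genes came from the platform annotation (10855 probe sets with 1 gene, 396 with several, 1237 with none; 10839 matched by Entrez ID, 0 symbols changed), and those with several genes stayed unnamed. Group means were estimated jointly over the 14 arrays (8 residual and 4.558 prior degrees of freedom) with limma 3.58.1 in R 4.3.3, with Benjamini-Hochberg adjustment over all tested probe sets, after a check on simulated data.

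Every tested subunit probe set is given in every comparison, called or not, and the dim ones by their intensities. From each pathway list the text names all members called and up to 4 by size of the WT change at 120 min, a gene being represented by its probe set of highest mean. The members and lists were chosen with earlier results of these data known. Replicate letters did not pair the arrays: deviations of the 31 same-letter pairs correlated between -0.121 and 0.084. Other normalizations, offsets, filters, variance models, sample sets, a replicate block and leaving out each array were tried. Promoter windows came from RefSeq (GRCm38.p6), and gene positions are not given because the files name no build.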

Additional observations from a re-analysis of the deposited data

Results flagged for a closer look

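The dim second probe set of Relb moved in opposite directions in the genotypes at 30 min. Its intensity was 47.3 and 8.0 in KO at 30 min, against 8.2, 10.7 and 8.4 in untreated KO, and 6.1 and 7.9 in WT at 30 min, against 23.6, 11.1 and 8.4 in untreated WT. By normalized log2 values every KO array at 30 min lay above the mean of untreated KO and every WT array at 30 min below the mean of untreated WT, and the responses differed by 0.61 on the log2(intensity + 32) scale. By deposited intensity the second KO array at 30 min (8.0) was not above untreated KO. The difference was not tested, because the probe set lay below the low-value filter on all 14 arrays, and the brighter Relb probe set gave 0.05 ± 0.39 for the same difference.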

How the results depend on the processing

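Relb kept its direction in WT at 120 min against untreated, in WT at 120 against 30 min and in KO against WT at 120 min under all 11 other settings and in all 14 fits without 1 array. Its call in WT at 120 min held under all 11 settings (changes of 1.72 to 2.74). Against WT at 30 min its count of 1 called subunit was 0 with only the groups compared (2.5, adjusted p = 0.0541). In KO against WT at 120 min the count of called subunits was 0, in place of 1, with an offset of 16 (-1.97, adjusted p = 0.0948), with values under 32 set to 32 (-2.26, 0.0608), with only the groups compared (-1.78, 0.188), with the replicate block (-1.75, 0.0546) and without the 3 arrays that correlated least with the rest (-1.49, 0.208), a setting added after seeing the data. The difference of the 120 min responses was called for 1 subunit, Relb, with an offset of 64 (-1.54, adjusted p = 0.0476). Without 1 array the count of called subunits ranged from 0 to 1 in the 3 comparisons where Relb was called. The cause was not tested. Values that turned were never called either way. They were Rela in KO at 120 min (0.01 without quantile normalization, 0.02 with median centring, 0.16 without the 3 arrays), the Relb difference in response at 30 min (-0.05 with the floor of 32, -0.22 without the 3 arrays), the Nfkb2 difference in response at 120 min (0.03 with the floor) and Nfkb2 in KO between 30 and 120 min (-0.24 without the 3 arrays). Over the fits without 1 array, signs also turned for Rela in KO at 120 min (-0.24 to 0.16), Relb in KO at 120 min (-0.02 to 0.54), Nfkb2 in KO between the times (-0.22 to 0.54), the responses of Nfkb2 at 120 min (-0.44 to 0.32) and Relb at 30 min (-0.18 to 0.28), KO against WT at 30 min for Nfkb2 (-0.05 to 0.37) and Rela (-0.31 to 0.07), KO against WT untreated for Rela (-0.04 to 0.30) and Relb (-0.10 to 0.37), and Rela in WT at 30 min (-0.19 to 0.20).

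Counts of all probe sets called depended on the settings more. In WT at 30 min, 9 became 5 with only the groups compared (6 to 10 without 1 array). In WT at 120 min, 46 became 20 with only the groups compared and 25 with the replicate block (13 to 44 without 1 array). In WT at 120 against 30 min, 11 became 3 with an offset of 16, 21 with an offset of 64, 21 with the filter at the 60th percentile, 0 with only the groups compared, 4 with the replicate block and 23 with an intensity trend (0 to 14 without 1 array). KO against WT at 30 min gave 9 and then 0 with only the groups compared, 15 with the trend and 4 without the 3 arrays (5 to 121). KO against WT at 120 min gave 23 and then 37 with an offset of 64, 4 with only the groups compared, 39 with the trend and 13 without the 3 arrays (9 to 49). The difference in response at 30 min gave 7 and then 4 with an offset of 16, with the floor and with only the groups compared, 3 with the replicate block and 0 without the 3 arrays (2 to 28). That at 120 min gave 12 and then 20 with an offset of 64, 5 with the replicate block and 5 without the 3 arrays (3 to 18). The counts of 0 ranged, without 1 array, from 0 to 240 in KO at 30 min, 0 to 11 in KO at 120 min, 0 to 110 in KO between the times and 0 to 7 between the untreated genotypes. Signal over background limits Rel and the second probe sets of Relb and Rela, which gave no testable value, and groups of 2 and 3 arrays limit the rest.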
